A study of Mus musculus with 8 samples.

Results

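The nuclear lamina is a meshwork of A-type and B-type lamins under the inner nuclear membrane, where integral membrane proteins tie it to chromatin and to the nuclear pores. The LINC complex (linker of nucleoskeleton and cytoskeleton) crosses both nuclear membranes: SUN proteins of the inner membrane bind lamins on the nuclear side and nesprins of the outer membrane in the space between, and nesprins in turn reach actin and other cytoskeletal filaments. In fibroblasts this chain is known for carrying force from adhesions to the nucleus, and A-type lamins for setting how stiff the nucleus is. The transcripts of 10 genes of this system were followed here: the lamins Lmna, Lmnb1 and Lmnb2, the inner membrane proteins Emd, Lbr and Tor1aip1, the SUN proteins Sun1 and Sun2, and the nesprins Syne1 and Syne2. They were chosen by name, and all 10 had a row among the 12528 genes of the table.

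The RNA came from immortalized mouse embryonic fibroblasts (MEFs) derived from wild-type (WT) and Cav1KO littermates, the latter lacking caveolin-1, a main protein of caveolae. Cells had spent 24 hr at low confluence on fibronectin-coated polyacrylamide hydrogels, either stiff (55 kPa) or soft (0.2 kPa). This gave 4 groups of 2 libraries, stiff and soft for WT and for Cav1KO cells. Nothing in the labels ties the libraries to separate cultures or lines, so a p-value covers only the spread between these libraries, and a genotype effect cannot be told apart from a difference between the immortalized lines. Libraries held 17089836 to 19944952 reads. Levels are in TMM-normalized CPM, that is, reads scaled to library size. Cav1 itself ranged from 949.8 to 1157 CPM in WT and never exceeded 0.411 CPM in Cav1KO cells. Of 10 fibroblast markers 9 had rows (Thy1 had none). Their summed level was 7920 to 7960 CPM on stiff and 10100 to 10200 CPM on soft gels in WT cells. In Cav1KO cells it was 3850 to 4680 and 10600 to 10800 CPM. The sum covers markers that differed between genotypes in opposite directions. On soft gels the mean of Postn was 2.55 CPM in WT and 488 CPM in Cav1KO cells, and that of S100a4 840 and 227 CPM. Of 6 macrophage markers 2 (Cd68 and Cd14) had rows, with a summed level of 24.9 to 40.4 CPM in WT and 92.8 to 104 CPM in Cav1KO libraries. Nearly all of that sum was Cd14 (24.4 to 102.5 CPM over the 8 libraries), with Cd68 at 0.552 to 4.55 CPM. Ptprc, Adgre1, Csf1r and Itgam had no row, and neither did the 5 endothelial, 5 epithelial and 6 muscle markers in the table analysed. In bulk RNA, fewer cells with a transcript and less transcript per cell cannot be told apart.

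Effects below are differences in log2(CPM + 1), on which low genes appear to change less than they do, with their standard error (SE). They come from a single limma fit over all 4 groups and 12494 genes, two-sided, with Benjamini-Hochberg adjustment over those genes and a threshold of 0.05. A gene "rose" or "fell" only where it passed that threshold. All 10 genes passed the filter of 1 CPM in at least 2 libraries, although Syne1 did so only through the first library of WT stiff and the first of WT soft.

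The plot of levels by library shows 3 kinds of pattern. Both B-type lamins, Emd and Lbr were higher on stiff than on soft gels in both genotypes, Tor1aip1 and Sun2 were lower, and Lmna was set apart by genotype rather than by stiffness. Sun1 passed no test. Groups that do not overlap are common in these data. In WT cells stiff and soft did not overlap for 6 of the 10 genes, beside 75.3% of all tested genes. In Cav1KO cells they did not for all 10, beside 78.5%. The genotypes did not overlap for 7 of the 10 on stiff and 7 on soft gels, beside 72.7% and 81.1%. Statements on overlap below are therefore a description.

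**Figure D1:**
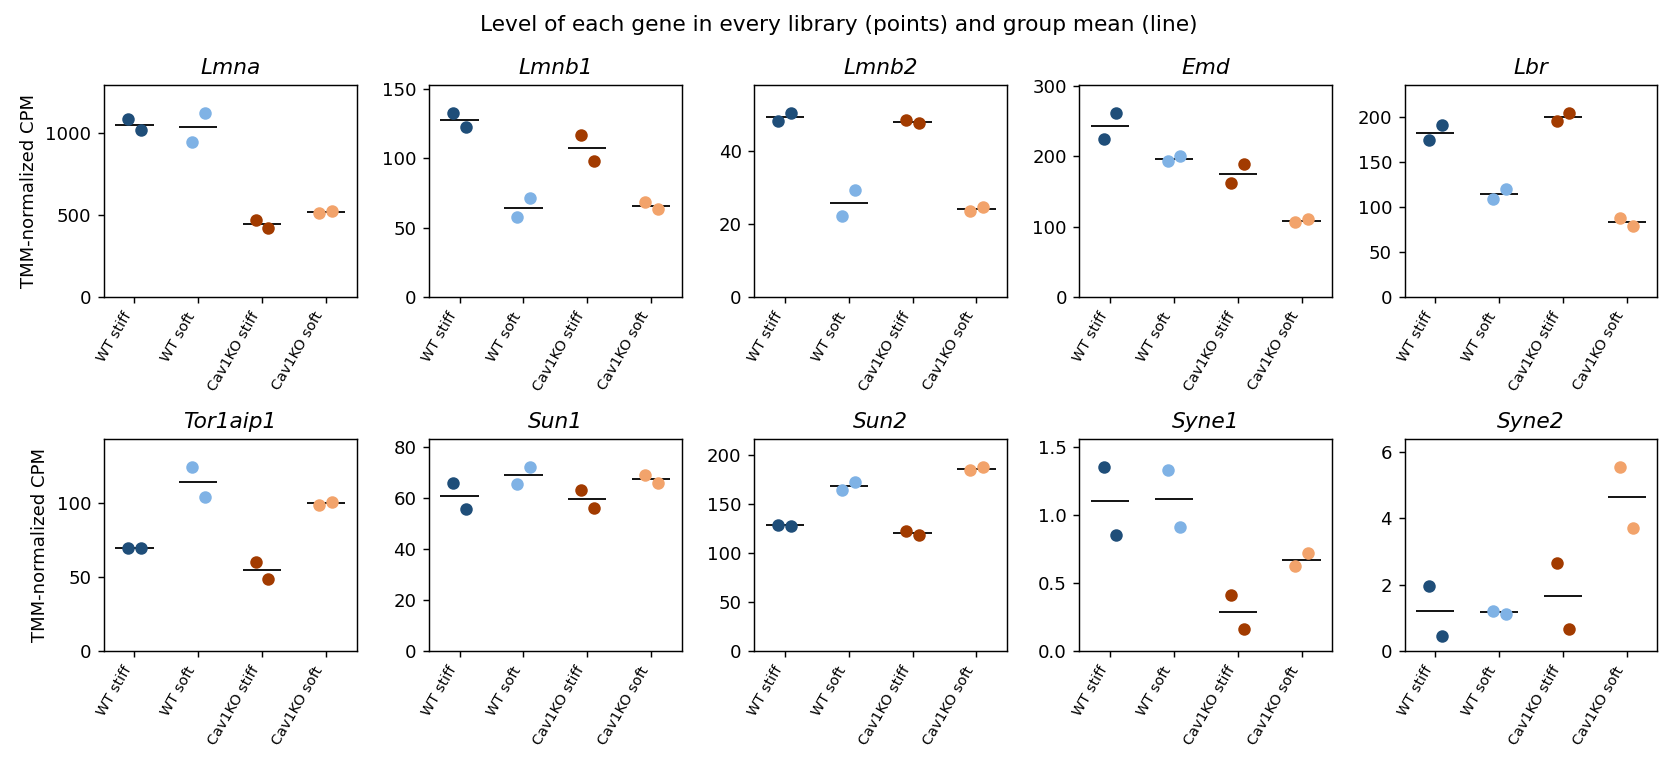
Level of each of the 10 genes in TMM-normalized CPM (vertical axis, linear and from 0, with its own range in each panel) by genotype and gel. Points are the 2 libraries of a group and lines their mean. Lmna lies at 943 to 1125 CPM in the WT and at 424 to 524 CPM in the Cav1KO libraries, whereas Lmnb1 and Lmnb2 separate stiff from soft.

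Lmna, which encodes lamins A and C, was measured at 1083 and 1016 CPM in WT stiff and at 943 and 1125 CPM in WT soft. It was at 473 and 424 CPM in Cav1KO stiff and at 514 and 524 CPM in Cav1KO soft. The WT groups overlapped each other, and every Cav1KO library lay below every WT library. On stiff gels the Cav1KO mean differed from the WT mean by -57.3% (log2 difference -1.23, SE 0.10, limma adjusted p = 1.85e-05), and on soft gels by -49.8% (-0.99, SE 0.10, adjusted p = 6.26e-05). The stiffness effect on Lmna was 0.03 in WT (95% confidence interval -0.20 to 0.25, adjusted p = 0.848) and -0.21 in Cav1KO cells (-0.44 to 0.01, adjusted p = 0.0998). The effect in Cav1KO cells passed the threshold after quantile normalization (-0.41, limma adjusted p = 0.0142) and for plain CPM (-0.34, adjusted p = 0.0336). It did not pass after median centring, with edgeR or with DESeq2. Without 1 library it ran from -0.29 to -0.13.

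The B-type lamins, which stay attached to the membrane through a farnesyl group, followed stiffness. Lmnb1 was at 133 and 123 CPM in WT stiff against 57.6 and 71.3 CPM in WT soft, and at 117 and 98.4 CPM in Cav1KO stiff against 68.3 and 63.5 CPM in Cav1KO soft. All stiff libraries were above all soft libraries. The rise on stiff gels was 0.98 in WT (SE 0.12, limma adjusted p = 0.000335) and 0.70 in Cav1KO cells (SE 0.12, adjusted p = 0.0014). In WT cells Lmnb2 was at 48.4 and 50.6 CPM on stiff and at 22.4 and 29.3 CPM on soft gels. In Cav1KO cells it was at 48.5 and 47.8 CPM on stiff and at 23.6 and 24.8 CPM on soft gels. Again no stiff library came down to a soft one, with a rise of 0.92 in WT (SE 0.12, adjusted p = 0.000484) and of 0.96 in Cav1KO cells (SE 0.12, adjusted p = 0.000279). No genotype effect on a B-type lamin passed the threshold. Its interval on soft gels was -0.24 to 0.32 for Lmnb1 and -0.36 to 0.20 for Lmnb2, and on stiff gels -0.53 to 0.03 and -0.32 to 0.24. Without the first Cav1KO stiff library, Lmnb1 was lower in Cav1KO on stiff gels (-0.37, adjusted p = 0.0412).

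The ratio of Lmna to Lmnb1 within a library took 3 levels, as the plot of lamin ratios shows. The ratio is of CPM and not per length, so only its differences between groups can be read. In WT cells Lmna over Lmnb1 was 8.15 and 8.28 on stiff and 16.4 and 15.8 on soft gels, and in Cav1KO cells 4.04 and 4.31 on stiff and 7.52 and 8.26 on soft gels. WT stiff and Cav1KO soft overlapped, and no other groups did. With Lmnb2 added to the denominator the WT means were 5.92 ± 0.0757 on stiff and 11.5 ± 0.431 on soft gels, and the Cav1KO means 2.88 ± 0.0311 and 5.76 ± 0.246 (SD, n = 2). Lmnb1 over Lmnb2 stayed between 2.06 and 2.90 over the 8 libraries. The ratios are given as a description, without a test. For a single value, an exact permutation test of 2 against 2 libraries cannot go below p = 0.333.

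**Figure D2:**
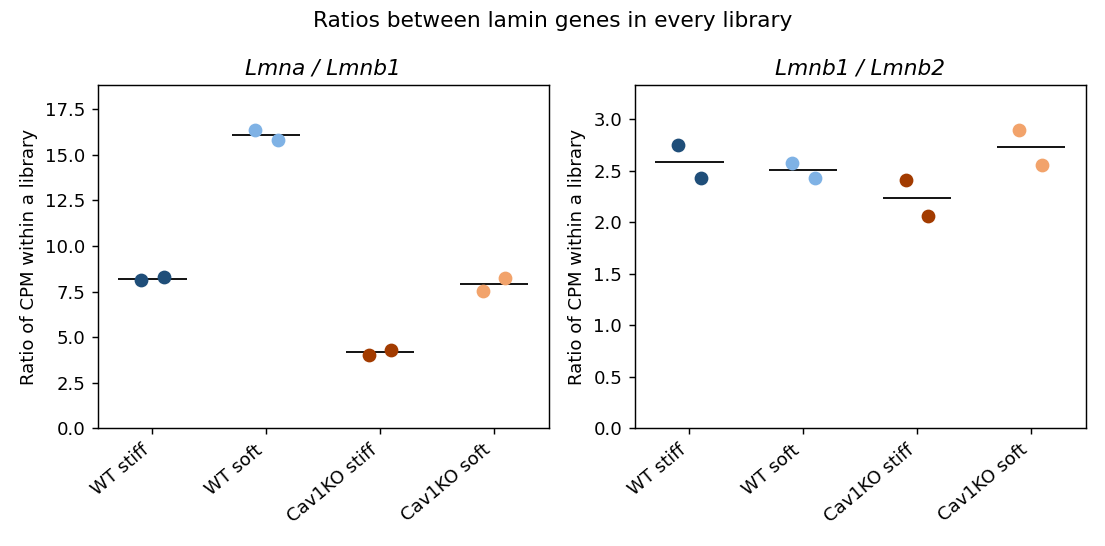
Ratio of Lmna to Lmnb1 (left) and of Lmnb1 to Lmnb2 (right) in CPM within each library (vertical axes, from 0), by group, with points for the 2 libraries and lines for their mean. The left ratio is 15.8 to 16.4 in WT soft and 4.04 to 4.31 in Cav1KO stiff, with WT stiff and Cav1KO soft between them. The right ratio is 2.06 to 2.90 throughout.

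Among the inner membrane proteins, Emd encodes emerin, a LEM domain protein that binds lamins and the chromatin protein BAF. It was at 225 and 262 CPM on stiff and 194 and 200 CPM on soft gels in WT cells, and at 162 and 188 CPM on stiff and 106 and 110 CPM on soft gels in Cav1KO cells. No groups overlapped, and the order ran from WT stiff at the top to Cav1KO soft at the bottom. Emd rose on stiff gels by 0.30 in WT (SE 0.10, limma adjusted p = 0.0321) and by 0.69 in Cav1KO cells (SE 0.10, adjusted p = 0.000489). It was lower in Cav1KO than in WT cells on stiff (-0.47, SE 0.10, adjusted p = 0.00384) and on soft gels (-0.86, SE 0.10, adjusted p = 0.00013). The rise in WT cells was the weakest of these calls: it was lost without the second WT stiff library (0.19, adjusted p = 0.188), without the first (0.28, adjusted p = 0.142) or the second (0.33, adjusted p = 0.0791) WT soft library, and without either Cav1KO soft library (0.30, adjusted p = 0.057). Without the mean-variance trend that rise was lost as well (limma adjusted p = 0.0645). Of the 60-base windows of Emd transcripts, 15.3% also occur in another gene. Most of them are in the overlapping processed pseudogene Gm14686 (10.8%), so the counts of Emd carry that uncertainty.

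Lbr encodes the lamin B receptor, which binds B-type lamins and heterochromatin and is also a sterol reductase. It was at 174 and 190 CPM on stiff and 109 and 120 CPM on soft gels in WT cells, and at 196 and 204 CPM on stiff and 87.7 and 79.0 CPM on soft gels in Cav1KO cells. Stiff libraries were above soft ones throughout, and Cav1KO libraries held both the highest and the lowest values. The rise on stiff gels was 0.67 in WT (SE 0.09, limma adjusted p = 0.000433) and 1.25 in Cav1KO cells (SE 0.09, adjusted p = 1.94e-05). Lbr was the single gene of the 10 for which the difference between these effects passed the threshold (WT effect minus Cav1KO effect -0.59, SE 0.12, adjusted p = 0.0304). That difference failed without the mean-variance trend (adjusted p = 0.0578) and for plain CPM (-0.47, adjusted p = 0.0555). It held without the second WT stiff library (adjusted p = 0.038) or the first Cav1KO stiff library (adjusted p = 0.017) and failed without any other library, with values from -0.66 to -0.51 and adjusted p up to 0.12. On soft gels Lbr was lower in Cav1KO cells (-0.45, SE 0.09, adjusted p = 0.00249), and on stiff gels the genotype effect was 0.14 (-0.06 to 0.33, adjusted p = 0.222). Exons of Dnah14 on the opposite strand share 7.78% of the Lbr windows, and no source used here states that counting used strand.

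Tor1aip1 encodes LAP1, a lamin-binding cofactor that activates the torsin ATPases. It ran the other way, at 69.4 and 69.3 CPM on stiff and 124 and 104 CPM on soft gels in WT cells, and at 60.4 and 49.0 CPM on stiff and 98.4 and 101 CPM on soft gels in Cav1KO cells. All soft libraries were above all stiff libraries. The fall on stiff gels was -0.71 in WT (SE 0.12, limma adjusted p = 0.00134) and -0.86 in Cav1KO cells (SE 0.12, adjusted p = 0.000354). On stiff gels it was lower in Cav1KO than in WT cells (-0.34, SE 0.12, adjusted p = 0.0344). That call was lost after centring each library on its median (-0.29, adjusted p = 0.0536) and without the mean-variance trend (adjusted p = 0.0608). It was also lost without either WT stiff library (-0.34, adjusted p = 0.11 without the first and 0.0978 without the second), without the second Cav1KO stiff library (-0.20, adjusted p = 0.191) and without either Cav1KO soft library (adjusted p = 0.059 and 0.0591). The gene overlaps its relative Tor1aip2, which lies on the opposite strand and shares 10.5% of its windows. Tor1aip2 also fell on stiff gels, by 0.64 in WT and by 0.40 in Cav1KO cells (SE 0.09 each, adjusted p = 0.000629 and 0.00537).

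Of the SUN proteins, which anchor nesprins from the inner membrane, Sun2 fell on stiff gels and Sun1 did not pass the test. Sun2 was at 129 and 128 CPM on stiff and 164 and 173 CPM on soft gels in WT cells, and at 123 and 118 CPM on stiff and 184 and 188 CPM on soft gels in Cav1KO cells. The 4 groups did not overlap, and both stiff groups lay below both soft groups. The fall was -0.39 in WT (SE 0.07, limma adjusted p = 0.0016) and -0.62 in Cav1KO cells (SE 0.07, adjusted p = 0.000104). The difference between these effects was 0.23 (0.02 to 0.45, adjusted p = 0.116), and the genotype effects were -0.09 on stiff (adjusted p = 0.278) and 0.14 on soft gels (adjusted p = 0.0956). The effect on soft gels passed after quantile normalization (0.22, adjusted p = 0.0212) and for plain CPM (0.26, adjusted p = 0.0162), but not after median centring. Sun1 was at 65.7 and 55.8 CPM on stiff and 65.6 and 72.2 CPM on soft gels in WT cells, and at 63.0 and 56.1 CPM on stiff and 69.2 and 65.8 CPM on soft gels in Cav1KO cells. Its stiffness effect was -0.18 in each genotype (-0.42 to 0.06, adjusted p = 0.182 in WT and 0.176 in Cav1KO), and its genotype effects were -0.03 on both substrates (adjusted p = 0.86 and 0.834). Sun2 over Sun1 was 1.96 and 2.30 in WT stiff, 2.51 and 2.39 in WT soft, 1.95 and 2.11 in Cav1KO stiff, and 2.67 and 2.86 in Cav1KO soft, higher in every soft than in every stiff library.

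The nesprins had few reads. Syne1, encoding nesprin-1, had 27 and 15 reads in WT stiff, 22 and 17 in WT soft, 7 and 3 in Cav1KO stiff and 12 and 14 in Cav1KO soft. These correspond to 1.36 and 0.855, 1.33 and 0.913, 0.412 and 0.164, and 0.627 and 0.720 CPM. It was lower in Cav1KO than in WT cells on stiff gels (-0.71, SE 0.19, limma adjusted p = 0.0134), and the effect on soft gels was -0.34 (-0.77 to 0.10, adjusted p = 0.164). Because Syne1 entered the fit only through 2 WT libraries, the genotype in which it is high, this test depends on the filter, and the difference is given as a description. DESeq2 on the recovered reads gave adjusted p = 0.0572 for it, and without the second Cav1KO stiff library it was -0.57 (adjusted p = 0.0793). Syne2, encoding nesprin-2, had 39 and 8 reads in WT stiff, 20 and 21 in WT soft, 45 and 12 in Cav1KO stiff and 106 and 72 in Cav1KO soft, or 1.96 and 0.456, 1.21 and 1.13, 2.65 and 0.658, and 5.54 and 3.70 CPM. Within each stiff group the first library was far above the second, and both Cav1KO soft libraries were above every other library. Syne2 fell on stiff gels in Cav1KO cells (-1.17, SE 0.41, adjusted p = 0.0379), with a stiffness effect of -0.06 in WT (SE 0.41, adjusted p = 0.914). It was higher in Cav1KO than in WT cells on soft gels (1.36, SE 0.41, adjusted p = 0.0219). Leaving out the second Cav1KO stiff library brought the fall in Cav1KO cells to -0.60 (adjusted p = 0.231) and leaving out the first Cav1KO soft library to -0.94 (adjusted p = 0.187), and it failed with edgeR (adjusted p = 0.0723), after quantile normalization (-0.87, adjusted p = 0.101) and without either WT soft library or the second Cav1KO soft library (adjusted p = 0.0618, 0.0615 and 0.0617). The genotype effect on soft gels failed without the first Cav1KO soft library (1.12, adjusted p = 0.127) or without either WT soft library (1.38, adjusted p = 0.0833, and 1.33, adjusted p = 0.0893).

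Both nesprin genes have very long transcripts, the longest of 27908 bases for Syne1 and 21704 for Syne2, and long transcripts as a class shifted between libraries. Over the 285 genes whose longest transcript has at least 10000 bases, the median log2 difference of replicate 2 from replicate 1 was -0.28 on stiff and 0.16 on soft gels in WT cells and -0.39 on stiff and -0.11 on soft gels in Cav1KO cells, against -0.02 to 0.02 for the 12141 other genes. The same class had a median stiffness effect of 0.18 in WT and -0.55 in Cav1KO cells, and a median genotype effect of -0.31 on stiff and 0.31 on soft gels. The part of this shift in the nesprin values was not tested.

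The plot of stiffness effects sets both genotypes side by side. On stiff gels 4 of the 10 genes rose (Lmnb1, Lmnb2, Emd and Lbr) and 2 fell (Tor1aip1 and Sun2) in WT cells, where 22.1% of all tested genes rose and 26.3% fell. In Cav1KO cells the same 4 genes rose and 3 fell (Tor1aip1, Sun2 and Syne2), where 27.9% of all genes rose and 28.2% fell. The median effect over the 10 was 0.01 in WT and -0.20 in Cav1KO cells, and over all tested genes -0.02 in each. For the difference between the effects, none of the 10 was called higher and 1 (Lbr) lower, where 4.47% of all genes were higher and 6.0% lower. Emd (-0.38, limma adjusted p = 0.0936) and Syne2 (1.11, adjusted p = 0.205) did not pass, and both did without the first Cav1KO stiff library (-0.49, adjusted p = 0.0298, and 1.68, adjusted p = 0.0383). For the 8 genes other than Lbr and Emd, the adjusted p of this difference was 0.116 or more.

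**Figure D3:**
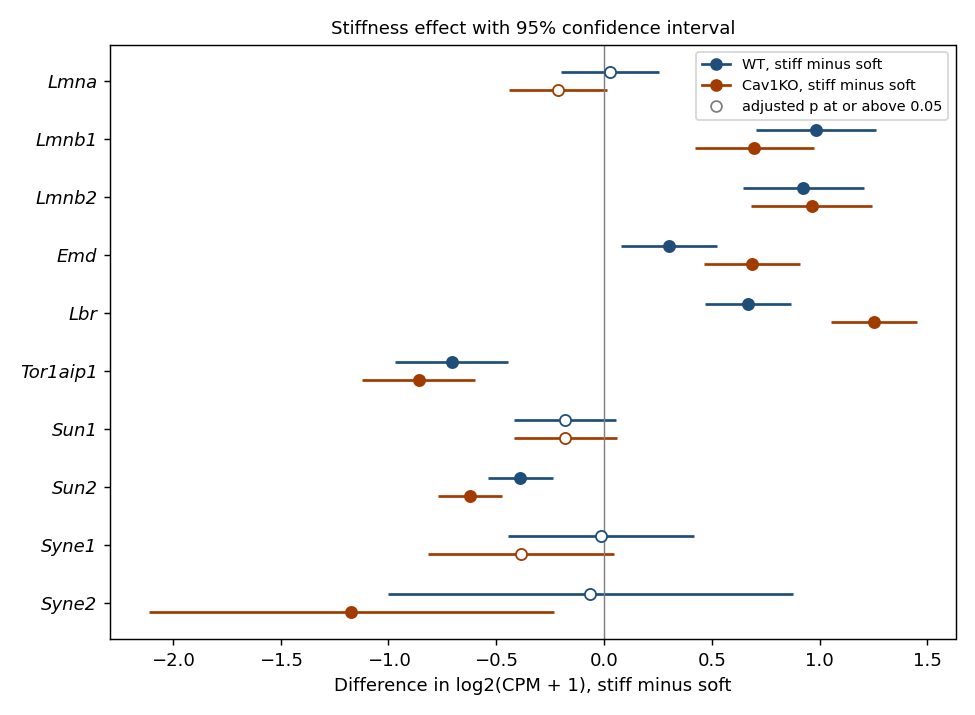
Stiffness effect on each gene in WT (blue) and Cav1KO cells (orange), as the difference in log2(CPM + 1), stiff minus soft (horizontal axis). Points are the fitted effect, bars its 95% confidence interval, and open points did not pass the threshold. Lmnb1, Lmnb2, Emd and Lbr lie to the right of 0 and Tor1aip1 and Sun2 to the left in both genotypes, and the widest bars are those of Syne2.

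Of the genotype effects that passed on stiff gels, that on Lmna was the largest in log2(CPM + 1), whereas in mean CPM Syne1 differed more (-73.9% against -57.3%). On stiff gels none of the 10 genes was higher in Cav1KO cells and 4 were lower (Lmna, Emd, Tor1aip1 and Syne1, the last admitted by the filter only through WT libraries), beside 25.0% of all tested genes higher and 26.6% lower. On soft gels 1 was higher (Syne2) and 3 were lower (Lmna, Emd and Lbr), beside 24.1% and 29.9% of all genes. The median effect over the 10 was -0.17 on stiff and -0.13 on soft gels, and over all tested genes -0.03 on each. These comparisons share libraries with the stiffness comparisons, so the same WT or Cav1KO values enter both.

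**Figure D4:**
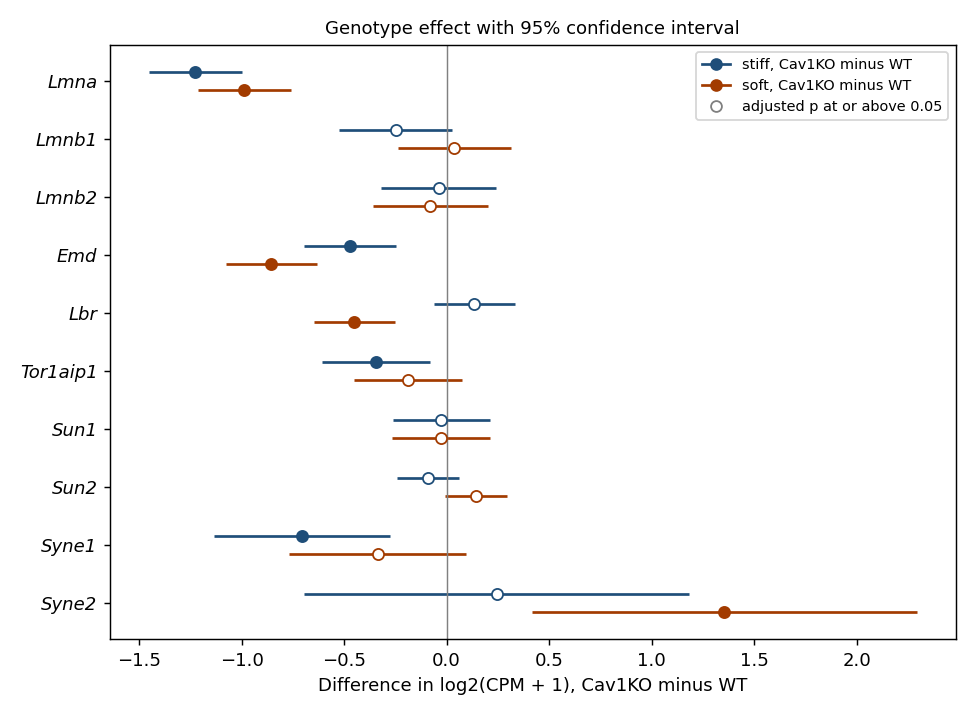
Genotype effect on each gene on stiff (blue) and soft gels (orange), as the difference in log2(CPM + 1), Cav1KO minus WT (horizontal axis). Points are the fitted effect, bars its 95% confidence interval, and open points did not pass the threshold. Lmna lies at -1.23 and -0.99 and Emd at -0.47 and -0.86, whereas both B-type lamins and both SUN genes have open points.

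Per kilobase of exon, so that genes can be compared, Lmna was the most abundant of the 10 in every group, at 180 CPM per kb on stiff and 177 on soft gels in WT cells and at 76.8 on stiff and 88.9 on soft gels in Cav1KO cells. Emd came second at 96.8, 78.2, 69.7 and 43.1 CPM per kb in the same order of groups. In WT stiff, Lmnb1 (43.2) and Lbr (38.2) followed, then Sun2 (23.7), Tor1aip1 (12.8), Lmnb2 (11.6) and Sun1 (8.0), with Syne2 at 0.0452 and Syne1 at 0.0273 CPM per kb. Lmnb1 and Lbr change places when the longest transcript is used as the length (45.0 and 51.9), and so do Lmnb2 and Sun1 (14.0 and 14.7), so neither order can be told. In Cav1KO stiff, Emd and Lmna were close, at 69.7 and 76.8 CPM per kb.

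Across the 8 libraries the levels of Lmnb1 and Lmnb2 had a Pearson correlation of 0.963, Lmnb2 and Lbr of 0.945, Lbr and Sun2 of -0.98, and Tor1aip1 and Sun2 of 0.894. Lmna and Lmnb1 had 0.0869. These describe 8 libraries that form 4 groups and are given without a test. Of 10056 other genes with a mean of at least 5 CPM, those most like Lmna by this measure were Col4a1 (0.998), Polm (0.996) and Creb3l1 (0.996). Col4a1, a basement membrane collagen, ranged from 18.0 to 27.7 CPM in WT cells and reached no more than 1.08 CPM in Cav1KO cells. Most like Lmnb1 were Nomo1 (0.999), Nudc (0.995) and Pelp1 (0.994), and most like Sun2 were Atxn1 (0.997), Gaa (0.995) and Tgfbi (0.994).

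The promoters of Lbr and Sun2 are shown because these genes moved in opposite directions with stiffness in both genotypes, and that of Emd because it moved with both stiffness and genotype. Each is 250 bases before to 50 after a RefSeq start site (GRCm38.p6), on the gene's strand and 5′ to 3′, with capitals marking matches to a CCAAT box (CCAAT), a cell cycle homology region (TTTGAA), a GC box (GGGCGG), a TEAD site (GGAATG) or an AP-1 site (TGANTCA) on either strand. Lbr lies at chr1:181842352-181842651 on the minus strand, Sun2 at chr15:79742487-79742786 on the minus strand and Emd at chrX:74254437-74254736 on the plus strand.
Lbr: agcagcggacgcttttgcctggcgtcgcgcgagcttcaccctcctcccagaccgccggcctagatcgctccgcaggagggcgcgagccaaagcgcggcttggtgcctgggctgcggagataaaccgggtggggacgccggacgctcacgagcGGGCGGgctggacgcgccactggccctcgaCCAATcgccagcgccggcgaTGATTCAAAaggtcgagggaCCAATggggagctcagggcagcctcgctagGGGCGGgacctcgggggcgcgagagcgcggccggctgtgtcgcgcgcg
Sun2: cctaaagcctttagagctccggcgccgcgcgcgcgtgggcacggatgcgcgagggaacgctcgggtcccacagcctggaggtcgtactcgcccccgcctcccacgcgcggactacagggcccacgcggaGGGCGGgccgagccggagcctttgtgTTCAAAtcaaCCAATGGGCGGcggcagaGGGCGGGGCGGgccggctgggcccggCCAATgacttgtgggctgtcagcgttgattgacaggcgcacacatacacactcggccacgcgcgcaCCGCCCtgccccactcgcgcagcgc
Emd: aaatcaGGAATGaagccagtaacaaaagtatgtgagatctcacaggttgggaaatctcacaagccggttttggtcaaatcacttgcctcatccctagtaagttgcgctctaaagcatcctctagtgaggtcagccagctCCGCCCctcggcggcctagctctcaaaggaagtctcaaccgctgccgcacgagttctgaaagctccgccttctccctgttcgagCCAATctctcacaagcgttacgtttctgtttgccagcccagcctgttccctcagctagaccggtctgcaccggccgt

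Lbr and Sun2 both hold a pair of CCAAT boxes, the letters TTTGAA on the reverse strand, and GC boxes. Lbr holds CCAAT at positions -68 and -28 from its start site and TTTGAA at -45, where an AP-1 match at -48 overlaps it. Sun2 holds CCAAT at -85 and -41 and TTTGAA at -95. Emd holds CCAAT at -27, a GC box at -111 and the TEAD letters at -244. Of 32851 RefSeq promoter windows of this length, 37.4% hold CCAAT, 17.9% TTTGAA, 35.7% GGGCGG, 14.7% GGAATG and 7.81% TGANTCA, so these matches are common and are a description, not sites. The E2F letters TTTCCCGC (1.07% of windows) and TTTGGCGC (0.514%) were in none of the 3 windows shown.

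Other genes of the nuclear envelope were followed as lists. The counts of each list stand beside the shares of all tested genes, of which 22.1% rose and 26.3% fell on stiff gels in WT cells and 27.9% rose and 28.2% fell in Cav1KO cells. In lists of 5 to 7 genes, 1 or 2 calls in a direction are close to those shares and are given as counts only. Of 27 nuclear pore genes 26 had rows (Nup210 had no row in the table analysed), and 24 rose and none fell on stiff gels in WT cells, with a median effect of 0.63 beside -0.02 over all genes. In Cav1KO cells 22 rose and 1 fell, with a median of 0.65. The largest rise in WT was that of Nup205, a scaffold nucleoporin (0.98, SE 0.09, limma adjusted p = 0.000112), from 146 and 170 CPM on soft to 325 and 297 CPM on stiff gels. In Cav1KO cells it was that of Ndc1, a membrane nucleoporin (1.06, SE 0.11, adjusted p = 0.000106). The gene that fell in Cav1KO cells was Tpr, of the nuclear basket (-1.46, SE 0.46, adjusted p = 0.0252), at 11.0 and 3.51 CPM on stiff and 21.4 and 17.3 CPM on soft gels, and no nuclear pore gene was called lower when either Cav1KO soft library or the second Cav1KO stiff library was left out. Over the 8 fits without 1 library its effect ran from -2.17 to -0.75, with adjusted p up to 0.142, and DESeq2 gave -1.43 (adjusted p = 0.0766).

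Between genotypes, 3 nuclear pore genes were higher and 10 lower in Cav1KO cells on stiff gels, and 4 were higher and 10 lower on soft gels, beside 25.0% and 26.6% of all genes on stiff and 24.1% and 29.9% on soft gels. Nup133 was higher in Cav1KO cells on both substrates (1.32 and 1.26, SE 0.12 each, limma adjusted p = 3.24e-05 and 4.07e-05). The plot of WT against Cav1KO stiffness effects puts the 4 rising genes of the lamina among the nuclear pore and proliferation genes. Of 20 proliferation genes, 18 rose and none fell on stiff gels in WT, beside 22.1% and 26.3% of all genes, and 17 rose and 2 fell in Cav1KO cells, beside 27.9% and 28.2%. Their median effect was 0.64 in WT and 0.78 in Cav1KO cells. The part of proliferation in the levels of the lamina genes was not tested. Mki67, a marker of cycling cells, rose in WT (1.22, SE 0.45, adjusted p = 0.05, at the threshold) and fell in Cav1KO cells (-1.51, SE 0.45, adjusted p = 0.0191), whereas Mcm5, a subunit of the replicative helicase, rose in both (0.84 and 1.32, SE 0.09 each, adjusted p = 0.000167 and 1.71e-05). No proliferation gene was called lower in Cav1KO cells without the first Cav1KO soft library or without the second Cav1KO stiff library. The WT call of Mki67 was lost with edgeR (adjusted p = 0.0646) and DESeq2 (adjusted p = 0.133), without the mean-variance trend (adjusted p = 0.0721) and for plain CPM (adjusted p = 0.0684). Leaving out 1 library, the WT rise of Mki67 ran from 0.61 (without the first WT soft library, adjusted p = 0.34) to 1.84 and was also lost without either WT stiff or either Cav1KO soft library. Its fall in Cav1KO cells ran from -2.11 to -0.91 and was lost without the second Cav1KO stiff library or either Cav1KO soft library (adjusted p up to 0.11). The longest transcript of Mki67 has 10061 bases, within the long class described above.

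**Figure D5:**
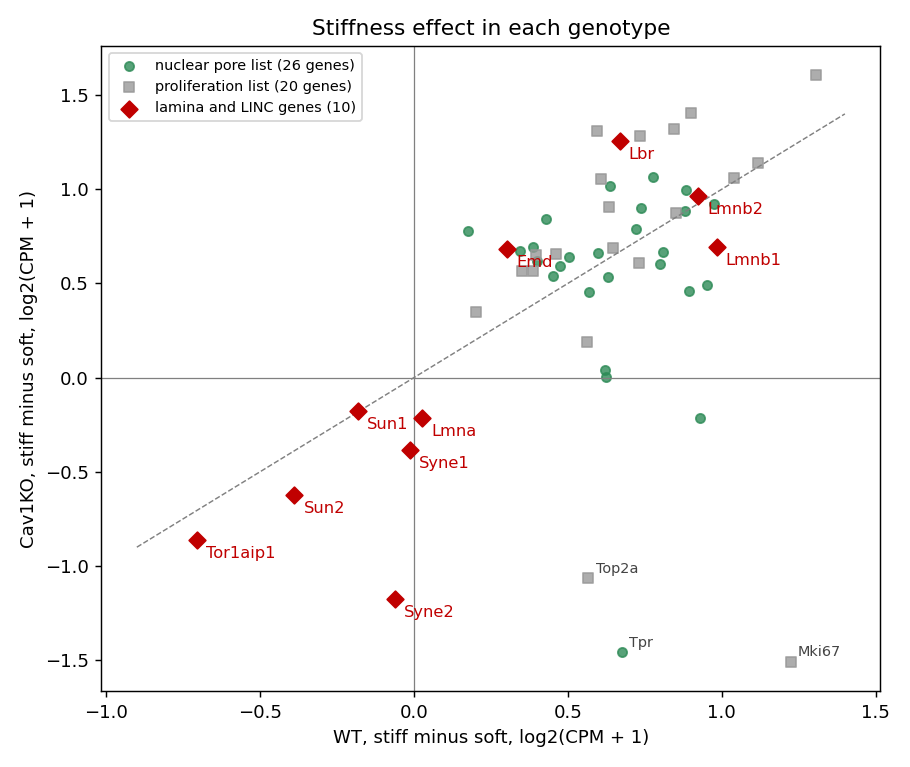
Stiffness effect in WT (horizontal axis) against Cav1KO cells (vertical axis), both as differences in log2(CPM + 1), stiff minus soft, for the 10 genes (red diamonds), 26 nuclear pore genes (green circles) and 20 proliferation genes (grey squares). The dashed line marks equal effects. Lmnb1, Lmnb2, Lbr and Emd lie in the upper right with most genes of both lists, Sun2 and Tor1aip1 in the lower left, and Tpr, Top2a and Mki67 in the lower right.

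The torsins, ATPases of the nuclear envelope lumen, and their cofactor Tor1aip2 formed a list of 6. On stiff gels 0 rose and 3 fell in WT (median -0.20), and 2 rose and 3 fell in Cav1KO cells (median -0.08), beside 22.1% and 26.3% of all genes in WT and 27.9% and 28.2% in Cav1KO cells. Tor3a had the largest fall, from 113 and 67.9 CPM on soft to 12.6 and 18.2 CPM on stiff gels in WT (-2.45, SE 0.23, limma adjusted p = 0.000101). In Cav1KO cells it went from 77.2 and 80.0 CPM to 12.7 and 13.0 CPM (-2.52, SE 0.23, adjusted p = 4.98e-05). Between genotypes 1 gene was higher (Tor4a) and 3 were lower in Cav1KO cells on stiff gels. On soft gels 1 was higher and 4 were lower. Over all genes 25.0% were higher and 26.6% lower on stiff, and 24.1% and 29.9% on soft gels. Tor2a was the lowest relative to WT (-0.82 and -0.80, SE 0.10 each, limma adjusted p = 0.000211 and 0.000213).

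Of the enzymes that farnesylate, trim and methylate lamins, 5 had rows, and 2 rose in WT and 4 in Cav1KO cells on stiff gels with none falling (medians 0.28 and 0.55), beside rises of 22.1% and 27.9% of all genes. Zmpste24, the protease that cuts prelamin A, was at 191 and 200 CPM on stiff and 142 and 143 CPM on soft gels in WT cells, and at 133 and 147 CPM on stiff and 85.3 and 94.1 CPM on soft gels in Cav1KO cells. It rose on stiff gels (0.45 in WT and 0.63 in Cav1KO, SE 0.08 each, limma adjusted p = 0.00198 and 0.000262). Like Lmna it was lower in Cav1KO cells on stiff (-0.48, adjusted p = 0.00117) and soft gels (-0.66, adjusted p = 0.000178). It was the only one of the 5 lower on stiff gels and 1 of 2 lower on soft gels, and none was higher on either. The shares of all genes were 26.6% lower and 25.0% higher on stiff, and 29.9% and 24.1% on soft gels.

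Emd belongs with the LEM domain proteins and BAF, of which 6 others had rows (Lemd1 had none in the table analysed). On stiff gels 3 rose in WT and 4 in Cav1KO cells and none fell (medians 0.42 and 0.51), beside rises of 22.1% and 27.9% of all genes. Banf1, which encodes BAF, rose most, by 0.61 in WT and 1.01 in Cav1KO cells (SE 0.08 each, limma adjusted p = 0.000573 and 3.5e-05). On stiff gels 2 were lower and none higher in Cav1KO cells, and on soft gels 1 and none, where 26.6% and 29.9% of all genes were lower. Among 9 chromatin factors that bind the lamina or its heterochromatin, 5 rose and none fell in WT (median 0.29). In Cav1KO cells 6 rose and 1 fell (median 0.60). Of all genes 22.1% rose and 26.3% fell in WT, and 27.9% and 28.2% in Cav1KO cells. Suv39h2, a histone H3 lysine methyltransferase, rose most (0.92 and 1.42, SE 0.13 each, adjusted p = 0.000566 and 4.85e-05), and Prr14, which tethers heterochromatin to the lamina, fell in Cav1KO cells (-0.40, SE 0.10, adjusted p = 0.00989), a call lost without the second Cav1KO stiff library or either Cav1KO soft library (adjusted p up to 0.0594). In Cav1KO cells 4 were higher and none lower on stiff gels, and 2 higher and 1 lower on soft gels. Beside this, 25.0% of all genes were higher and 26.6% lower on stiff, and 24.1% and 29.9% on soft gels.

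Of 8 other LINC genes 5 had rows (Syne4, Sun3 and Sun5 had none in the table analysed). On stiff gels 2 rose and 1 fell in WT (median 0.12), and 1 rose and 3 fell in Cav1KO cells (median -0.27), beside 22.1% and 26.3% of all genes in WT and 27.9% and 28.2% in Cav1KO cells. Plec, the cytolinker plectin, rose in WT (0.85, SE 0.30, limma adjusted p = 0.0445) and fell in Cav1KO cells (-0.81, SE 0.30, adjusted p = 0.0471), and the difference between these effects was 1.67 (SE 0.43, adjusted p = 0.0458). It was at 530 and 441 CPM on stiff and 199 and 357 CPM on soft gels in WT cells, and at 408 and 227 CPM on stiff and 530 and 539 CPM on soft gels in Cav1KO cells, and its longest transcript of 15455 bases puts it in the long class. The WT rise of Plec was lost without either WT stiff library, the first WT soft library or either Cav1KO soft library (0.44 to 1.27 over the 8 fits), and its fall in Cav1KO cells without either WT stiff library, the second Cav1KO stiff library or either Cav1KO soft library (-1.24 to -0.39). The difference for Plec held in 2 of 8 such fits, without the second WT soft or the first Cav1KO stiff library. Both effects of Plec and their difference also failed with edgeR (adjusted p = 0.0544, 0.0595 and 0.0577 in that order), with DESeq2 (0.109, 0.118 and 0.0517) and without the mean-variance trend (0.0704, 0.0731 and 0.0744). Syne3, encoding nesprin-3, fell in Cav1KO cells (-0.97, SE 0.15, adjusted p = 0.000778), with 0.02 in WT (adjusted p = 0.911) and a difference between the effects of 0.99 (SE 0.21, adjusted p = 0.0314), which held only without the second WT stiff library or the first Cav1KO stiff library among the 8 fits that left out a library (adjusted p up to 0.14). Its fall in Cav1KO cells kept its call in all 8. Between genotypes 1 of these LINC genes was higher and 3 were lower in Cav1KO cells on stiff gels. On soft gels 2 were higher and 1 lower. Among all genes 25.0% were higher and 26.6% lower on stiff, and 24.1% and 29.9% on soft gels. Of 10 other inner nuclear membrane genes 7 had rows. None rose and 2 fell in WT (median -0.20), and 2 rose and 2 fell in Cav1KO cells (median 0.10), shares close to those of all genes except for the rises in WT. Tmem43 was lower in Cav1KO cells on stiff (-0.31, SE 0.07, limma adjusted p = 0.00557) and soft gels (-0.57, SE 0.07, adjusted p = 0.000161). Of this list 0 genes were higher and 1 lower on stiff gels, and 1 higher and 2 lower on soft gels. These counts stand beside the genotype shares of all genes given for the LINC list.

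By the GENCODE annotation of GRCm38, the 10 genes lie apart from each other. Lbr and Tor1aip1 share chromosome 1, where they begin at 181815335 and 156004599. Lmnb2 and Syne1 share chromosome 10, where they begin at 80901203 and 5020917. All 10 genes are protein-coding. Values are per gene, and how reads on exons and untranslated regions were counted was not examined. Lmna spans 88480147 to 88509956 on chromosome 3 (minus strand), Lbr 181815335 to 181843046 on chromosome 1 (minus strand), Emd 74254687 to 74261548 on chromosome X (plus strand), and Sun2 79724070 to 79742536 on chromosome 15 (minus strand).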

How the data were processed

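The authors selected poly(A) RNA from 500 ng of total RNA and sequenced single reads of 60 bases. The submitters' processing notes name CASAVA 1.8.2, cutadapt, RSEM 1.2.3 and GRCm38, without roles. The deposited signal is TMM-normalized CPM per gene and library, in which TMM scaling corrects library size for a few abundant genes. All values (100%, tolerance 0.01) were whole multiples of the value of 1 read, so reads were recovered. No value column was left unmapped.

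Groups follow the genotype and gel that each sample's label gives. Genes that reached 1 CPM in 2 or more libraries (12494 of 12528) were tested with limma 3.58.1 (R 4.3.3) on log2(CPM + 1), with a mean-variance trend, 4 residual degrees of freedom and 5 contrasts. The fit was also run on simulated counts, drawn independently for each library with the same dispersion for every gene. Shifts shared by a class of genes, such as that of long transcripts, were not part of them. Alternatives were pseudocounts of 0.5 and 5, other filters and scalings, no trend, edgeR 4.0.16 and DESeq2 1.42.0 on recovered reads, a replicate block, a 2-fold minimum, and leaving out each library. For the RNA-seq the paper names a Fisher exact test of YAP target enrichment. It also names enrichment analyses with Ingenuity Pathway Analysis and Enrichr. None of these was run here, and the paper's text gives no test per gene. Genes matched the annotation for 99.5% of rows.

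The 10 genes were fixed by name. From each list, the largest rise and fall past the threshold were candidates for naming, and for likeness the 3 genes with the highest Pearson correlation. Mki67 and Mcm5 were named from the proliferation list, and Tor1aip2, which overlaps Tor1aip1, was added after its values were seen. The genes and lists were chosen with earlier results of these data known. Replicate libraries differed by more than counting noise (chi-square per degree of freedom 3.47 to 17.8).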

Additional observations from a re-analysis of the deposited data

Results flagged for a closer look

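The stiffness effect differed between genotypes by a test of the difference itself (WT effect minus Cav1KO effect) for 7 of the genes named above. These are a selection, and over all tested genes 4.47% were higher and 6.0% lower. Of 20 proliferation genes 2 were higher and 3 lower, the lowest being Pcna (-0.715, limma adjusted p = 0.0208). Of 9 fibroblast markers 3 were higher and 0 lower, the highest being Col1a1 (1.86, adjusted p = 0.00457). Of 26 nuclear pore genes 0 were higher and 1 lower (Seh1l, -0.60, adjusted p = 0.0217). Of 5 other LINC genes 2 were higher and 0 lower. Of 9 chromatin factors 0 were higher and 1 lower (Hdac3, -0.49, adjusted p = 0.0426). The other lists of the nuclear envelope had no call. For Lbr the difference was -0.59 (limma adjusted p = 0.0304), with all 4 stiff libraries above all 4 soft libraries and a larger rise in Cav1KO cells.

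For Mki67 it was 2.73 (adjusted p = 0.0373), with 17.6 and 12.7 CPM in WT stiff, 3.44 and 9.46 in WT soft, 10.3 and 3.95 in Cav1KO stiff and 22.0 and 18.7 in Cav1KO soft. For Mcm5 it was -0.48 (adjusted p = 0.0471), with 582 and 578 CPM in WT stiff, 296 and 351 in WT soft, 615 and 652 in Cav1KO stiff and 252 and 254 in Cav1KO soft. For Plec it was 1.67 (adjusted p = 0.0458), for Syne3 0.99 (adjusted p = 0.0314), for Top2a of the proliferation list 1.63 (adjusted p = 0.039) and for the macrophage marker Cd14 -0.57 (adjusted p = 0.0499). Without the mean-variance trend it was lost for Lbr, Mki67, Mcm5 and Plec (adjusted p = 0.0578, 0.0583, 0.0861 and 0.0744). For Mcm5 it was also lost for plain CPM (-0.36, adjusted p = 0.11), with edgeR (adjusted p = 0.0538), after quantile normalization (adjusted p = 0.0522) and with a pseudocount of 0.5 (adjusted p = 0.0502). Without 1 library, the difference was called in 3 of 8 fits for Mki67 (2.12 to 3.35) and in 2 of 8 each for Mcm5 (-0.60 to -0.35), Plec (1.24 to 2.09), Syne3 (0.79 to 1.19) and Lbr (-0.66 to -0.51). The cause of these differences was not tested. Those of Top2a, Cd14, Pcna, Col1a1, Seh1l and Hdac3 were not put through the alternatives or the fits without 1 library.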

How the results depend on the processing

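Of the 22 calls among the 10 genes, none changed direction under any of the alternatives, and 16 also kept their call in all 8 fits without 1 library and in every other alternative except the 2-fold minimum. The 22 include the effect of genotype on Syne1 on stiff gels, which depends on the filter and is a description. Syne1 was not in the fits without the first WT stiff or first WT soft library. Neither nesprin passed the filter of 5 CPM, so their calls could not change there. With at least a 2-fold change required, the counts of genes called went from 6 to 0 in WT and from 7 to 2 in Cav1KO. They went from 1 to 0 for the difference between stiffness effects, from 4 to 1 for genotype on stiff and from 4 to 1 on soft gels. The difference between stiffness effects was also called for 0 genes without the mean-variance trend and for plain CPM. Without 1 library, the counts ranged from 5 to 6 in WT, 6 to 7 in Cav1KO, 0 to 3 for the difference, 2 to 5 for genotype on stiff and 3 to 4 on soft gels.

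The effects of the 10 genes that changed sign were all uncalled. Median centring gave 0.028 for Syne1 in WT, and 0.017 for Lmnb2 and 0.03 for Sun1 for genotype on stiff gels. Quantile normalization gave -0.013 for Lmna, 0.27 for Syne1 and 0.18 for Syne2 in WT, 0.017 for Sun1 for the difference between effects, and 0.004 and 0.021 for Sun1 for genotype on stiff and soft gels. Plain CPM gave 0.072 for Lmnb2 and 0.11 for Sun1 for the difference, and 0.029 for Lmnb2 and 0.083 for Sun1 for genotype on soft gels. Syne2 in WT was 0.077 with edgeR and 0.06 with DESeq2, which gave 0.007 for Sun1 for the difference. Without 1 library, the ranges of the effects of the 10 genes that changed sign, and of the WT effect of Syne3, were -0.10 to 0.15 for Lmna, -0.16 to 0.16 for Syne1, -0.57 to 0.45 for Syne2 and -0.077 to 0.125 for Syne3 in WT. For the difference between effects they were -0.12 to 0.11 for Sun1 and -0.23 to 0.15 for Lmnb2. For genotype they were -0.14 to 0.092 for Sun1 and -0.32 to 0.81 for Syne2 on stiff gels, and -0.10 to 0.039 for Sun1, -0.27 to 0.11 for Lmnb2 and -0.11 to 0.19 for Lmnb1 on soft gels. The cause of these changes was not tested.

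Replicate numbers were treated only as names, since the labels tie them to no shared day or batch, and the correlation of replicate differences between groups ran from -0.367 to 0.415. With the replicate block, the 10 genes had 6, 7, 1, 4 and 4 calls in the 5 comparisons, as without it, and no call of theirs changed, whereas the WT rise of Mki67 (adjusted p = 0.0676) and, for Plec, the WT rise (0.0626), the Cav1KO fall (0.0656) and their difference (0.0569) were lost. Plain CPM moved the median of all genes by -0.11 in Cav1KO cells, 0.11 for the difference and 0.10 for genotype on soft gels, and the share of calls that were higher from 49.7% to 39.4%, from 42.7% to 57.4% and from 44.7% to 55.2%. Over all genes, 559 were higher and 750 lower for the difference between stiffness effects, against 314 and 391 without the trend, 503 and 373 for plain CPM, 361 and 541 with edgeR, 781 and 719 with DESeq2, and 23 to 1752 and 69 to 1693 without 1 library, the lowest without the first Cav1KO soft and the highest without the first Cav1KO stiff library. On the recovered reads edgeR called 2715 genes higher and 3219 lower in WT, 3464 and 3430 in Cav1KO, 3121 and 3296 for genotype on stiff and 2946 and 3693 on soft gels. Without the first WT stiff or the first WT soft library Syne1 did not pass the filter. The nesprins had 3 to 106 reads per library, and the part of depth in their spread was not tested.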
